A study of Mus musculus with 8 samples.

Results

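BMP-2 acted for 6 h on C2C12 cells without the endocytosis inhibitor dynasore, and the comparison described here sets the 2 BMP-2+DMSO samples against the 2 DMSO samples, 4 of the 8 samples of the series. C2C12 is a mouse myoblast line in which BMP-2 turns differentiation away from muscle and toward the osteoblast. All cells were serum-starved for 4 h before BMP-2, and DMSO at 0.05% was present during the last 2 h of starvation and during stimulation. BMP-2+DMSO cells then received 30 nM BMP-2, and DMSO cells received none. The other 4 samples, Dynasore and BMP-2+Dynasore, carried 40 µM dynasore, kept as a stock in DMSO, and serve below as a second measurement of the BMP-2 response. The samples are described as biological duplicates, and each was hybridized to 1 Illumina mouse BeadChip, on which a transcript is read by beads with a single probe sequence.

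BMP-2 is a dimeric ligand that assembles type I and type II serine/threonine kinase receptors. The type I receptor phosphorylates Smad1, Smad5 and Smad8, which enter the nucleus with Smad4 and act on GC-rich elements and on Smad boxes in target genes. Id genes and homeobox genes are the best known early targets, and inhibitory Smads and secreted antagonists such as noggin form the feedback arm. In C2C12 cells the regulators Runx2 and Sp7 mark the early osteoblast program and the enzyme alkaline phosphatase a later stage.

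The genes that were highest relative to DMSO on both BMP-2+DMSO arrays were Hey1, Prelp, Sp7, Dlx2, Avpr1a and Id3, each over 11-fold on the array with the smaller change or, for Sp7, by at least 13.7-fold. The lowest were Lrig1, Angptl4, Gadd45a and Dtx4. With limma, 16 of 10244 tested probes (0.156%) rose and 5 (0.0488%) fell at a Benjamini-Hochberg adjusted p under 0.05. At an unadjusted p under 0.05 there were 406 and 349. The 15 genes with a symbol that rose were Hey1, Prelp, Sp7, Dlx2, Avpr1a, Id3, Smoc1, Krt16, Rgs4, Ccn2, Cdca7, Dlx1, Foxq1, Krt14 and Plpp3. The 4 that fell were Angptl4, Popdc3, Dtx4 and Gadd45a, and 1 probe in each direction had no symbol. These calls depend on each array. Without DMSO replicate 1 or without DMSO replicate 2 no probe passed, without BMP-2+DMSO replicate 2 the counts were 211 and 260, and without BMP-2+DMSO replicate 1 they were 4230 and 2881. With either BMP-2+DMSO array left out, the array that remains is assumed to vary like the other groups, which alone supply the spread.

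The 2 BMP-2+DMSO arrays differed from each other far more than the DMSO arrays did. Array-wide values correlated at 0.994 between the DMSO duplicates and at 0.777 between the BMP-2+DMSO duplicates. BMP-2+DMSO replicate 2 had a background mode of 242 intensity units against 3.50 on replicate 1 and -1.20 and 3.32 on the DMSO arrays. It had 7429 probes above its background limit, while the other 3 arrays had 8874 to 9463. The change over the DMSO mean had quartiles of -0.17 and 0.17 on the log2 scale on replicate 1 and of -0.71 and 0.91 on replicate 2. On replicate 1, 571 probes were at least 1.4-fold higher and 691 lower than the DMSO mean, and on replicate 2 there were 4172 and 3056. The sign of the change was the same on both arrays for 49.7% of the tested probes.

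For this reason each gene is described by its smaller change, the smaller of the 2 log2 changes over the DMSO mean, set to 0 where the signs differ. Both BMP-2+DMSO arrays were at least 1.4-fold above the DMSO mean, without overlapping either DMSO array, for 282 probes (2.75% of those tested) that stand for 263 named genes. Both were as far below it for 274 probes (2.67%) and 251 named genes. In DMSO 51 of the 282 probes were above background on neither array, and in BMP-2+DMSO 39 of the 274 were. Some of them, such as Sp7, Mepe and Ptx3, were above it on the 2 BMP-2+DMSO arrays only and so entered through the group in which they were high. No test stands behind these counts, and 173 probes were 1.4-fold higher on replicate 1 and lower on replicate 2, with 180 the other way round. Among the 571 probes that were higher on replicate 1, 49.6% were also higher on replicate 2, and among the 691 lower ones 39.7% were also lower. Of all 10244 tested probes, 4172 were at least 1.4-fold higher on replicate 2 and 3056 lower. The median smaller change over all tested probes was 0.

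**Figure D1:**
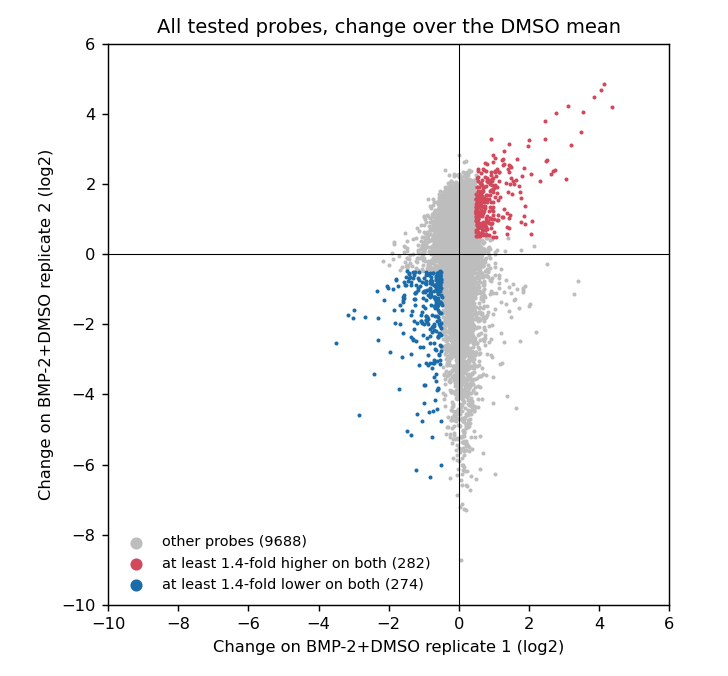
Change over the DMSO mean (log2) on BMP-2+DMSO replicate 1 (horizontal axis) and replicate 2 (vertical axis) for the 10244 tested probes, with the 282 probes higher on both arrays in red and the 274 lower on both in blue. The cloud is narrow along replicate 1 and wide along replicate 2, with a tail to -8.73 on replicate 2 only.

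Values far below the DMSO mean were mostly those of replicate 2. A level at least 8-fold below the DMSO mean was found for 472 probes on replicate 2 and for 3 on replicate 1. Of these 472, 408 were within 1.4-fold of the DMSO mean on replicate 1, and their median level in DMSO was 10.19. Probes at low levels cannot show such a distance, and none with a DMSO level under 7 did. Of the 981 probes with a DMSO level under 6, 60 were among those higher on both arrays and 4 among those lower. Of the 1067 probes between 10 and 11, 19 were higher and 45 lower. Among 162 genes read by more than 1 probe above background in DMSO, the probes of a gene differed in their change by over 1.4-fold for 5.56% of the genes on replicate 1 and for 71.6% on replicate 2. Differences over 8-fold occurred for 22 of these genes on replicate 2 and for 0 on replicate 1.

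**Figure D2:**
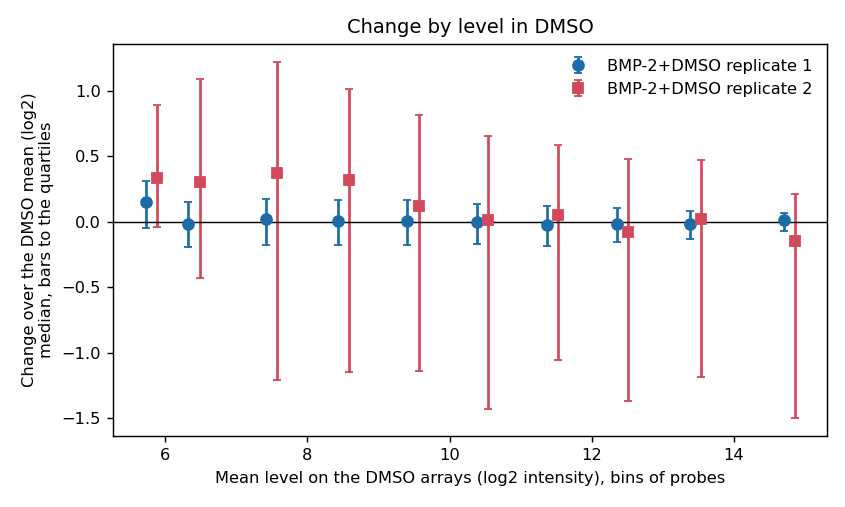
Median change over the DMSO mean (log2), with bars to the quartiles, for tested probes in bins of their mean DMSO level (log2 intensity), on each BMP-2+DMSO array. The quartiles of replicate 1 lie between -0.20 and 0.31 in all bins, and those of replicate 2 reach from -1.50 to 1.22.

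Transcription factors of the BMP and Smad response were counted as a list, in which Zbtb2 stands only as a gene of the study's qPCR and the others as known targets. Of 19 tested members 10 were higher on both arrays and 0 were lower, where 2.75% and 2.67% of all probes were. Without Zbtb2 they were 9 of 18. The median smaller change of the list was 0.76, and 4 members, Hey1, Dlx2, Id3 and Dlx1, passed the limma test. Without replicate 2 there were 14 higher and 0 lower members, and without replicate 1 there were 12 and 5. Over the other background corrections, scalings and filters the higher members numbered 7 to 10. The list was written with earlier results of these arrays known, so it is no independent evidence of its direction.

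Promoter sequence is shown for Id3, Id2 and Dlx2, which belong to this list and were higher on both arrays, and for Prelp as the largest rise outside it. The window of Dlx1, which meets the same rule, is not printed. RefSeq promoter entries (GRCm38.p6) matched 13 of the 20 genes with the largest increases by the smaller change, and 250 bases before the gene start are printed 5′ to 3′ on the gene's strand. Capitals mark GGCGCC, a GC-rich Smad element that equals its own reverse complement, and CAGAC, a Smad box, also on the other strand as GTCTG. The palindrome GTCTAGAC was searched as well. It overlaps no full CAGAC or GTCTG of its own.
Id3, chr4:136143572-136143821, plus strand: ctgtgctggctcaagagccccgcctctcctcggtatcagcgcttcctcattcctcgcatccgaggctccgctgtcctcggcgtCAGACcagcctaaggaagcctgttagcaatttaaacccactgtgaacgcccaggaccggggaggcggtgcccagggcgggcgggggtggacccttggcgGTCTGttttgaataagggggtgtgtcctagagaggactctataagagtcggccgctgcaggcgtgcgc
Id2, chr12:25096093-25096342, minus strand: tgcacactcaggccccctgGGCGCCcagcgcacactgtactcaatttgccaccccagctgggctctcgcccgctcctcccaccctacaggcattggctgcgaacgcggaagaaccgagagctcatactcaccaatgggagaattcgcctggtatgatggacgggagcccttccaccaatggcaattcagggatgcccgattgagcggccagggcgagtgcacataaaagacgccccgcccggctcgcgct
Dlx2, chr2:71546755-71547004, minus strand: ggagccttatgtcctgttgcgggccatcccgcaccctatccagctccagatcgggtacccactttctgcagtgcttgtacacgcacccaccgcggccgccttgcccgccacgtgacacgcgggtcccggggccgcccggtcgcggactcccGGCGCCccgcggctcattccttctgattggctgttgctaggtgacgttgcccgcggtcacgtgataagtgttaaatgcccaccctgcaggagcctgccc
Prelp, chr1:133921402-133921651, minus strand: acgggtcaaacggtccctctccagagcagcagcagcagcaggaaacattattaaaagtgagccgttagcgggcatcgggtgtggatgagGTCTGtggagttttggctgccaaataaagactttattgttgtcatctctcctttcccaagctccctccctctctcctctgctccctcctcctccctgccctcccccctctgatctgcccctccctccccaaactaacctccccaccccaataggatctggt

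In these windows Id3 held CAGAC at 167 and, as GTCTG, at 68 bases before the gene start, Prelp held GTCTG at 161, and GGCGCC lay at 231 bases in Id2 and at 99 in Dlx2. GGCGCC was found for 3 of these 13 genes, for 26.3% of the 205 genes higher on both arrays, for 14.5% of the 179 lower genes and for 18.7% of the 7657 tested genes with an entry. CAGAC was found for 7 of the 13, and for 49.8%, 50.3% and 46.3% of those sets. Of the 13 tested members of the transcription factor list with an entry, GGCGCC was found for 4 and CAGAC for 3. The window of Dlx1 held none of the motifs. GTCTAGAC was in none of the windows of the higher or lower genes and in 0.274% of the tested genes. Over all promoters of the table, tested or not, GGCGCC was in 9.59% of windows of this length, CAGAC in 42.2% and GTCTAGAC in 0.167%. A match says only that the letters are present.

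Hey1, a basic helix-loop-helix repressor, was at log2 intensities of 8.23 and 8.33 on the DMSO arrays and at 12.66 and 12.48 on the BMP-2+DMSO arrays. The BMP-2+DMSO arrays lay close together and far above both DMSO arrays, and the rise was 4.28 ± 0.21 (standard error, limma, n = 2 against 2, adjusted p = 0.0034). Id3, an inhibitor of helix-loop-helix factors, was at 8.30 and 8.44 in DMSO and at 11.86 and 11.85 in BMP-2+DMSO. Its rise of 3.48 ± 0.20 (limma adjusted p = 0.0039) had the closest agreement of the 20 largest increases, with 3.49 and 3.48 on the 2 arrays.

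The Id1 and Id2 genes, of the same family as Id3, were higher on both arrays too but missed the test. Id1 was at 8.18 and 8.11 in DMSO and at 11.20 and 10.30 in BMP-2+DMSO, a difference of 2.60 ± 0.34 (limma adjusted p = 0.065). Id2 was at 6.08 and 6.29 and then at 8.49 and 8.28, a difference of 2.21 ± 0.29 (limma adjusted p = 0.063). Neither gene's groups overlapped. With equal medians the limma adjusted p of Id1 was 0.042, and with array weights it was 0.18.

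Distal-less homeobox genes, which pattern the skeleton and act in osteoblasts, were higher for each of the 3 tested members. Dlx2 was near the background limit in DMSO, at 6.28 and 6.22, and reached 10.10 and 10.73 in BMP-2+DMSO, a rise of 4.16 ± 0.34 (limma adjusted p = 0.016). Dlx1 went from 7.74 and 7.80 to 10.45 and 10.15, a rise of 2.53 ± 0.30 (limma adjusted p = 0.044). Dlx3 was already at 10.59 and 10.56 in DMSO and at 11.54 and 11.82 in BMP-2+DMSO, and its difference of 1.11 ± 0.18 did not pass (limma adjusted p = 0.12). The changes of the 3 genes were not tested against each other.

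The remaining 3 members that were higher on both arrays were Zbtb2, Atoh8 and Tbx3, and none of them passed. Zbtb2, a zinc finger repressor of p53 function, was at 7.41 and 7.67 in DMSO and 8.42 and 8.56 in BMP-2+DMSO, a difference of 0.95 ± 0.27 (limma adjusted p = 0.44). Atoh8, a helix-loop-helix factor, had a smaller change of 0.76 and the T-box factor Tbx3 one of 1.05. A second probe of Tbx3 disagreed, with 1.21 on replicate 1 and -1.36 on replicate 2. Of the remaining 9 tested members, Junb changed by 1.73 on replicate 1 and -1.54 on replicate 2, and Gata3 by 1.34 and -0.73. Msx2, near the background limit, was within 0.08 of the DMSO mean on both.

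**Figure D3:**
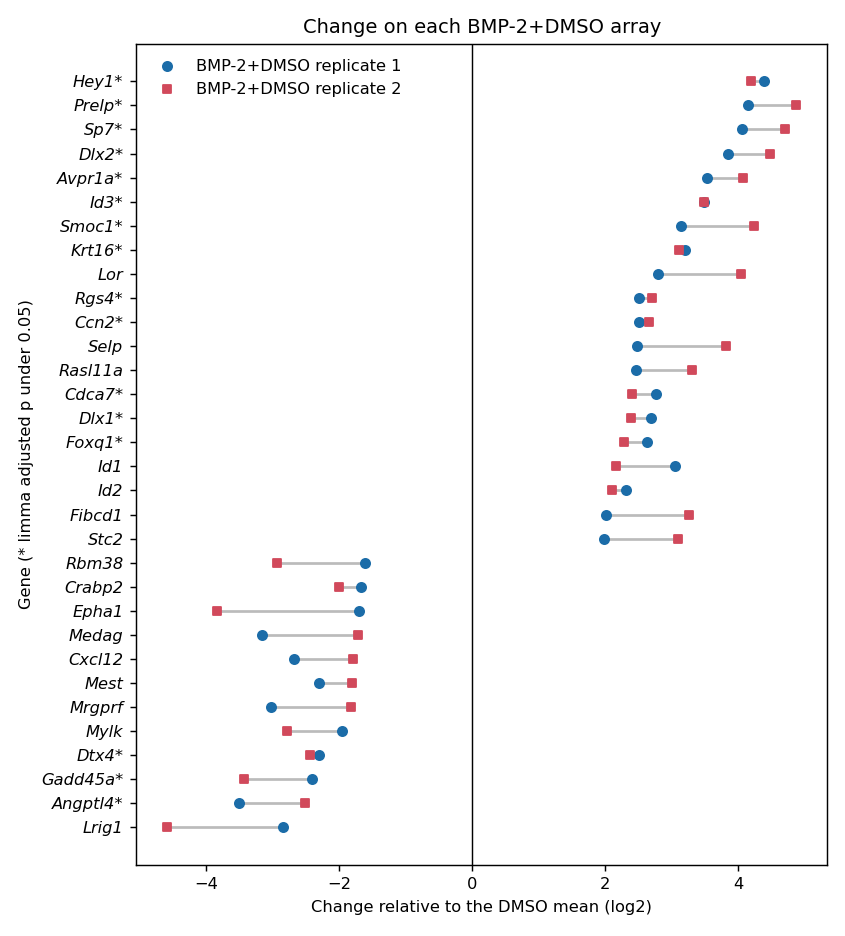
Change over the DMSO mean (log2) on BMP-2+DMSO replicate 1 (circles) and replicate 2 (squares) for the 20 genes with the largest increase by the smaller change and the 12 with the largest decrease, with a line joining the arrays and an asterisk at genes past the limma threshold. All 32 genes lie on the same side of 0 on both arrays, and Id3, Krt16, Dtx4, Ccn2 and Hey1 have the shortest lines among those marked. Sp7, Smoc1 and Lor were above background on neither DMSO array, and Dtx4 and Mest on neither BMP-2+DMSO array. Their points are no measured folds, and the short line of Dtx4 joins background values.

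Osteoblast genes were represented by Sp7 above all. Sp7 (osterix), a zinc finger factor required for osteoblast formation, was not above background on either DMSO array, at 5.53 and 6.06, and stood at 9.86 and 10.49 in BMP-2+DMSO. It was at least 17.1-fold higher (limma adjusted p = 0.014), and at least 13.7-fold on the array with the smaller change, both against the background limits. Alpl, the alkaline phosphatase of bone, was likewise not above background in DMSO and was at 7.09 and 7.76 in BMP-2+DMSO, at least 2.54-fold higher without passing the test (limma adjusted p = 0.21).

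Omd, a keratan sulphate proteoglycan of bone, was at 6.27 and 6.30 in DMSO and at 7.03 and 8.90 in BMP-2+DMSO. Mepe, a phosphoglycoprotein of bone matrix, was at 6.40 and 6.85 in BMP-2+DMSO, close to the background limits of 6.05 and 6.61 on those arrays. These 4 were the tested members, of 14 osteoblast genes, that were higher on both arrays, and 0 were lower, beside 2.75% and 2.67% of all probes. Sp7, Alpl and Mepe were not above background on either DMSO array. Without replicate 1 the counts were 8 and 3, beside 4171 and 3056 of all 10244 tested probes. Sparc, an abundant matrix protein gene of the list picked after its values were seen, changed by 0.13 on replicate 1 and -6.15 on replicate 2. Phex was at 8.47 and 8.38 in DMSO and at 7.12 and 8.43 in BMP-2+DMSO. Bglap and Ibsp were above background on none of the 4 arrays, and Runx2 and Spp1 had no probe under their symbol. Of 14 members only Sp7 passed the limma test, and among probes above background on all 4 arrays only Omd was still counted as higher, since Sp7, Alpl and Mepe leave by that filter.

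Matrix and matricellular genes were found in both directions. Prelp, a leucine-rich proteoglycan of connective tissue, was at 8.51 and 8.40 in DMSO and at 12.60 and 13.32 in BMP-2+DMSO, a rise of 4.51 ± 0.32 (limma adjusted p = 0.013). Smoc1, which encodes a calcium-binding glycoprotein found in basement membranes, was not above background in DMSO, at 5.74 and 5.08, and stood at 8.54 and 9.65. It was at least 8.09-fold higher (limma adjusted p = 0.044). Beside the 2 BMP-2+DMSO arrays, only BMP-2+Dynasore replicate 2 had it above background, at 6.08 against a limit of 6.06. Smoc1 thus entered the tested probes only through arrays with BMP-2. Both BMP-2+DMSO arrays were far above the DMSO arrays for both genes.

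Ccn2 (CTGF), a matricellular protein, rose from 10.10 and 10.18 to 12.64 and 12.79, by 2.57 ± 0.23 (limma adjusted p = 0.017). Its relative Ccn4 (WISP1) was lower on both arrays, at 11.03 and 10.98 in DMSO and 8.87 and 9.69 in BMP-2+DMSO, without passing (limma adjusted p = 0.16). In the list of CCN proteins and targets shared with TGF-β and YAP signalling, 3 of 15 members were higher (Ccn2, Tgfbi, Snai1) and 3 lower (Ccn4, Plau, Ankrd1). Among other matrix proteins, 3 of 19 were higher and 2 lower, the latter being Mgp, an inhibitor of calcification, and Nid2, a basement membrane protein. Of 16 collagen chains 0 were higher and 1, Col5a3, was lower. These 3 lists stand beside 2.75% higher and 2.67% lower of all tested probes.

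Receptors and signalling proteins made up another part of the largest increases. Avpr1a, a vasopressin receptor, rose from 7.59 and 7.53 to 11.09 and 11.63, by 3.80 ± 0.29 (limma adjusted p = 0.013). Rgs4, a regulator of G-protein signalling, rose from 7.18 and 7.004 to 9.60 and 9.79, by 2.60 ± 0.28 (limma adjusted p = 0.033). In both genes the 4 arrays fell into separate levels by treatment.

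Selp, the adhesion receptor P-selectin, was at 6.16 and 6.32 in DMSO and at 8.72 and 10.06 in BMP-2+DMSO (limma adjusted p = 0.083), and none of the 8 endothelial markers was above background on any of the 4 arrays. A mixed list of receptors, ion channels and related genes also holds Selp, the transporter gene Slc1a3 and the ligand gene Edn1. Of its 13 tested members, 6 were higher on both arrays and 1, the potassium channel gene Kcnj2, was lower, beside 2.75% and 2.67% of all probes. Beside Avpr1a and Selp the higher ones were Npr3, Lpar1, Slc1a3 and Edn1, whose smaller changes lay between 0.52 and 1.63. Without any single array the higher members numbered 6 or 7, and without replicate 1 the lower ones numbered 3.

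Some keratin genes were also among those that rose. Krt16, a keratin of activated epidermis, rose from 6.56 and 6.22 to 9.58 and 9.49, by 3.15 ± 0.33 (limma adjusted p = 0.033). Krt14, a keratin of basal epithelium, rose from 11.21 and 11.13 to 13.04 and 13.62, by 2.16 ± 0.22 (limma adjusted p = 0.033). Lor, a protein of the cornified envelope, was not above background in DMSO and at 8.78 and 10.03 in BMP-2+DMSO, at least 6.49-fold higher on the array with the smaller change without passing the test (limma adjusted p = 0.065).

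Of 7 epithelial markers on the array, 4 were above background on each DMSO array and 3 on each BMP-2+DMSO array, with a mean level of 6.72 to 6.78 in DMSO and 7.41 to 7.48 in BMP-2+DMSO. Krt14 and Krt16 are 2 of these markers. Krt19, another, changed by -0.06 on replicate 1 and by -2.37 on replicate 2, where it was not above background. Krt8 was at 6.27 and 6.29 in DMSO and at 5.96, not above background, and 7.06 in BMP-2+DMSO. Krt5, Krt18 and Cdh1 were above background on none of the 4 arrays. The part of other cells in these values was not tested. Of the other marker lists, 2 of 6 osteoblast markers were above background on each DMSO array and 4 on each BMP-2+DMSO array, and of 8 chondrocyte markers 4 were above it on each DMSO array and 3 and 1 on the BMP-2+DMSO arrays. Adipocyte, blood cell and neural markers above background numbered 2 to 3, 2 and 4 on the DMSO arrays and 2, 1 to 2 and 2 to 3 on the BMP-2+DMSO arrays. Markers of the labelled cell type were present, with 6 of 7 myoblast markers above background on both DMSO arrays and on BMP-2+DMSO replicate 1, and 3 on replicate 2. They were Chrna1, Des, Myod1, Myog, Itga7 and Vcam1, of which Chrna1, Des and Vcam1 remained above it on replicate 2, and Myf5 was below it on all 4 arrays.

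Among the other largest increases, Cdca7, a nuclear protein linked to the cell cycle, went from 9.12 and 9.11 to 11.87 and 11.51, a rise of 2.57 ± 0.23 (limma adjusted p = 0.017). Foxq1, a forkhead factor, went from 9.67 and 9.85 to 12.38 and 12.04, a rise of 2.45 ± 0.21 (limma adjusted p = 0.016). Plpp3, a lipid phosphate phosphatase outside the 20 largest increases that was named because it passed the test, rose by 1.83 ± 0.19 (limma adjusted p = 0.033). Both BMP-2+DMSO arrays exceeded both DMSO arrays for each of the 3. The small GTPase Rasl11a, Fibcd1 and the secreted glycoprotein Stc2 did not pass, with smaller changes of 2.46, 2.01 and 1.97. Across the 20 largest increases 13 passed the test, and in 12 the change was larger on replicate 2.

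**Figure D4:**
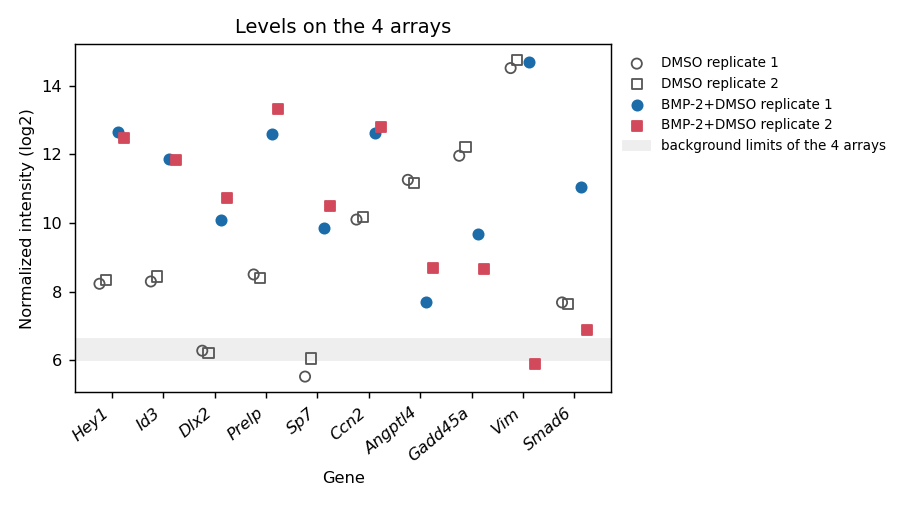
Normalized log2 intensity on each of the 4 arrays for 8 genes that passed the limma test, for Vim and for Smad6, with the range of the background limits of the 4 arrays in grey. Open symbols are DMSO and filled symbols BMP-2+DMSO, whose replicates lie together for Hey1, Id3 and Ccn2 and apart for Vim (14.71 and 5.91) and Smad6 (11.06 and 6.89).

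Among the genes that fell, Angptl4, a secreted inhibitor of lipoprotein lipase, went from 11.26 and 11.18 in DMSO to 7.71 and 8.70 in BMP-2+DMSO. Both BMP-2+DMSO arrays were below both DMSO arrays, and expression fell by 3.01 ± 0.36 on the log2 scale (limma adjusted p = 0.048). Gadd45a, a stress-induced growth arrest gene, went from 11.96 and 12.21 to 9.68 and 8.66, and fell by 2.92 ± 0.33 (limma adjusted p = 0.044). Dtx4, a Deltex ubiquitin ligase of the Notch pathway, was at 8.28 and 8.07 in DMSO and not above background in BMP-2+DMSO. It was at least 3.60-fold lower (limma adjusted p = 0.044).

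Popdc3, a membrane protein of striated muscle that lies outside the 12 largest decreases and was named because it passed, went from 13.41 and 13.55 to 12.15 and 11.86 and fell by 1.47 ± 0.17 (limma adjusted p = 0.044). Lrig1, a negative regulator of EGF receptors, had the largest decrease by the smaller change, -2.85. It was at 10.55 and 10.78 in DMSO and at 7.82 and 6.09 in BMP-2+DMSO, where replicate 2 was not above background, and missed the test (limma adjusted p = 0.085). The chemokine Cxcl12 was at 10.25 and 10.31 and then at 7.60 and 8.49 (limma adjusted p = 0.11). Mylk, the myosin light chain kinase, was at 8.13 and 8.04 and then at 6.13 and 5.30 (limma adjusted p = 0.083). The other 6 of the 12 largest decreases were Mrgprf, Mest, Medag, Epha1, Crabp2 and Rbm38, with smaller changes between -1.61 and -1.82, and none of them passed. Mest was not above background on either BMP-2+DMSO array and was at least 4.07-fold lower.

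Feedback genes of the pathway gave no common picture. Of 13 tested inhibitors and antagonists 1, the Ski-like corepressor Skil, was higher on both arrays with a smaller change of 1.02. Another, the secreted modulator Bmper, was lower with -0.88, where 2.75% of all probes were higher and 2.67% lower. Several members disagreed between the arrays. Fstl1, a follistatin-like secreted protein, changed by 1.05 on replicate 1 and -6.26 on replicate 2. Smad6, an inhibitory Smad, is given because both of its probes were measured. Its first probe was at 7.69 and 7.63 in DMSO, at 11.06 on BMP-2+DMSO replicate 1 and at 6.89 on replicate 2. Its second probe changed by 3.28 and -1.12 in the same way, so that both probes agreed within each array and the arrays did not agree. In BMP-2+Dynasore, over the Dynasore mean, the first probe changed by 3.33 and 3.14 and the second by 2.89 and -0.42. Noggin (Nog) changed by 1.32 on replicate 1 and 0.09 on replicate 2.

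Among BMP and TGF-β receptors, Smads and ligands, 2 of 19 were higher and 1 lower, beside 2.75% and 2.67% of all probes. Acvr1, a type I BMP receptor, was at 10.30 and 10.04 in DMSO and 10.78 and 10.68 in BMP-2+DMSO, and Inhba, the activin A subunit, had a smaller change of 0.96. Tgfbr2, the type II TGF-β receptor, was the lower one, at 11.74 and 11.74 in DMSO and 10.59 and 10.74 in BMP-2+DMSO, a difference of -1.08 ± 0.18 (limma adjusted p = 0.14). No member of this list or of the feedback list passed the limma test.

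Notch pathway genes other than Hey1 were lower more often than higher on both arrays. Of 17 tested members 1 was higher, Hey1, and 4 were lower, where 2.67% of all probes were. The lower ones were Dtx4, the receptor Notch3, the ligand Dll1 and the repressor Hes6, with smaller changes of -2.30, -0.99, -0.81 and -0.81. Of these 4 only Dtx4 passed, and Notch3 changed by -0.99 on replicate 1 and -3.73 on replicate 2.

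In the Wnt pathway 4 of 24 members were higher and 1 was lower, beside 2.75% and 2.67% of all probes. Nkd2, Notum and Axin2, which restrain Wnt signalling, and the receptor gene Fzd6 had smaller changes between 0.53 and 1.396. Lrp4 was the lower one with -0.65. None of the 5 passed the limma test.

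Muscle genes were lower for 6 of 34 tested members and higher for 1, Musk, where 2.67% and 2.75% of all probes were. The 6 were Chrng, a fetal acetylcholine receptor subunit, Itga7, Cacng1, Tnnc1, Vgll2 and Mymk, with smaller changes from -0.91 to -0.53, and none passed. Chrng was at 9.34 and 9.33 in DMSO and at 7.28 and 8.43 in BMP-2+DMSO. On replicate 1 alone 10 members were at least 1.4-fold lower and 3 higher, and on replicate 2 alone 13 were lower and 12 higher. Of all 10244 tested probes 691 were lower and 571 higher on replicate 1, and 3056 and 4172 on replicate 2. Myog, a late myogenic regulator, was at 6.70 and 6.69 in DMSO and 6.58 on replicate 1, while Myod1 changed by 1.21 on replicate 1 and -2.25 on replicate 2.

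A mixed list of cytokines, chemokines, their receptors and related genes was lower for 5 of 25 members and higher for 1, beside 2.67% and 2.75% of all probes. The lower ones were the chemokines Cxcl12 and Cxcl1, the receptors Osmr and Il6ra and the adhesion molecule Vcam1. The higher one was the pentraxin Ptx3. The arrays parted here, with 2 higher and 8 lower on replicate 1 and 12 higher and 7 lower on replicate 2. Genes of growth factors and their regulators were split, with 6 of 34 higher and 6 lower, beside 2.75% and 2.67% of all probes. Vegfc, a lymphatic growth factor, was at 8.46 and 8.38 in DMSO and 10.17 and 10.20 in BMP-2+DMSO (limma adjusted p = 0.074). Errfi1, a feedback inhibitor of EGF receptors, changed by -1.25 and -1.45 on the 2 BMP-2+DMSO arrays (limma adjusted p = 0.069), and the binding protein Igfbp5 was at 14.43 and 14.64 and then at 12.97 and 13.36 (limma adjusted p = 0.083). In none of these 3 genes did the groups overlap.

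Cell cycle genes were higher on both arrays for 2 of 30 members (Rrm2 and Mcm4) and lower for 0. All counts of this paragraph stand beside 2.75% higher and 2.67% lower of all tested probes. Among D cyclins, cell cycle inhibitors and p53 targets, Gadd45g was higher and Ccnd1 and Gadd45a were lower of 18. The 22 immediate early factors had 3 higher (Ier3, Nfil3, Cebpb) and 2 lower (Egr1, Klf2), and the 20 smooth muscle and SRF genes 2 higher (Csrp2, Cald1) and 1 lower (Fhl2). Stress genes were higher for 2 of 23 (Gclm, Slc7a11), and cholesterol enzymes lower for 1 of 14 (Dhcr7). In the 21 ribosomal protein genes and the 22 tubulin, actin and other abundant transcripts, 0 were higher and 0 lower on both arrays. Of all these only Gadd45a passed the limma test.

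The 6 genes of this paragraph were chosen for the largest falls on replicate 2, and only bright probes can fall so far. They therefore do not show that abundant transcripts were lost more often. Of 1361 probes with a DMSO level between 9 and 10, 149 were at least 8-fold lower on replicate 2. Of the 96 probes at 14 or above, 13 were. Vim (vimentin) was at 14.52 and 14.76 in DMSO, 14.71 on BMP-2+DMSO replicate 1 and 5.91 on replicate 2, where its deposited intensity of 247 was below the background limit of 258. Tuba1b, Tuba1a, H2az1 and H2ac7, which encode tubulins and histones, changed by -7.26 to -6.62 on replicate 2 and were within 0.32 of the DMSO mean on replicate 1. Hspa8, a constitutive chaperone, was -7.31 by one probe and -0.09 by the other on replicate 2, and 0.21 and 0.04 on replicate 1. None of these 6 genes passed the limma test.

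Large changes found on replicate 1 but not on replicate 2 of BMP-2+DMSO were those of Smad6, Enc1, Sox9, Gadd45b, Mmp11 and Adgrg3, between 2.01 and 3.40, and of Arhgap22, -2.15. These 7 genes were picked after their values were seen. Sox9, a chondrogenic factor, was at 7.45 and 7.18 in DMSO, 9.53 on replicate 1 and 5.11 on replicate 2. Gadd45b was at 7.72 and 7.85, then 9.92 and 8.02. For Sox9 replicate 1 was above and replicate 2 below both DMSO arrays. In BMP-2+Dynasore the changes over the Dynasore mean were 1.28 and 1.39 for Enc1 and 1.72 and 1.71 for Gadd45b. They were 1.43 and 1.69 for Mmp11 and 1.29 and 0.82 for Adgrg3. Sox9 went the other way there, with -1.34 and -1.23, and Arhgap22 changed by -0.22 and 0.04.

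The response to BMP-2 in the presence of dynasore was measured on 4 other arrays and shares no array with the comparison above. Both BMP-2+Dynasore arrays were above both Dynasore arrays for 162 of the 282 higher probes (57.4%), where 23.8% of all tested probes were, and for 15 of the 16 probes that passed the limma test. Both were below for 152 of the 274 lower probes (55.5%), where 17.8% of all were, and for 4 of the 5 that passed. The opposite order was found for 17 of the 282 and for 22 of the 274. The 1.4-fold limit on both arrays was met by fewer, 57 of the 282 and 34 of the 274. Of all 10244 tested probes it was met by 130 upward and by 74 downward. Without BMP-2+DMSO replicate 2 the share was 41.9% of 570 probes, and without replicate 1 it was 33.7% of 4171.

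The replicate 2 arrays of both BMP-2 groups had features in common. Deviations from the group mean of same-numbered arrays correlated at 0.50 between BMP-2+DMSO and BMP-2+Dynasore. BMP-2+Dynasore replicate 2 had a background mode of 45.2 against 13.4 on replicate 1, and its level of Hspa8, by the probe that was low on BMP-2+DMSO replicate 2, was 9.10 against 13.86. The part of this likeness in the shared directions was not tested.

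With dynasore, BMP-2 raised Hey1 from 9.01 and 9.05 to 11.97 and 12.35 and Id3 from 8.34 and 8.41 to 11.35 and 11.28, the only genes that passed there (limma adjusted p = 0.013 for both). Id1, at 7.44 and 7.32 in Dynasore and 9.82 and 9.69 in BMP-2+Dynasore, differed by 2.37 ± 0.34 against 2.60 ± 0.34 without dynasore. Sp7 was at 5.77 and 5.52 in Dynasore and 5.71 and 5.92 in BMP-2+Dynasore, above background on none of these arrays. Prelp, at 6.34 and 6.46 and then 6.88 and 7.22, and Ccn2, at 8.34 and 8.38 and then 8.66 and 9.09, differed by 0.65 and 0.51.

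Of the 20 largest increases, 19 were higher on both BMP-2+Dynasore arrays than on both Dynasore arrays, Sp7 being the exception. Smoc1, one of the 19, was at 5.15 and 5.35 in Dynasore and at 5.73 and 6.08 in BMP-2+Dynasore. Of these arrays only BMP-2+Dynasore replicate 2 had it above background. Of the 12 largest decreases, 10 were lower on both. The change with dynasore was the smaller one for all 20 and all 12, but the genes had been chosen for a large change without it, and that same change enters the difference. The difference of the responses itself, the interaction, was called for 0 of the 10244 probes by limma (0%), with 229 at an unadjusted p under 0.05. Without BMP-2+DMSO replicate 2 it was called for 112 probes, and without replicate 1 for 5756, in fits where the other groups alone supply the spread.

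**Figure D5:**
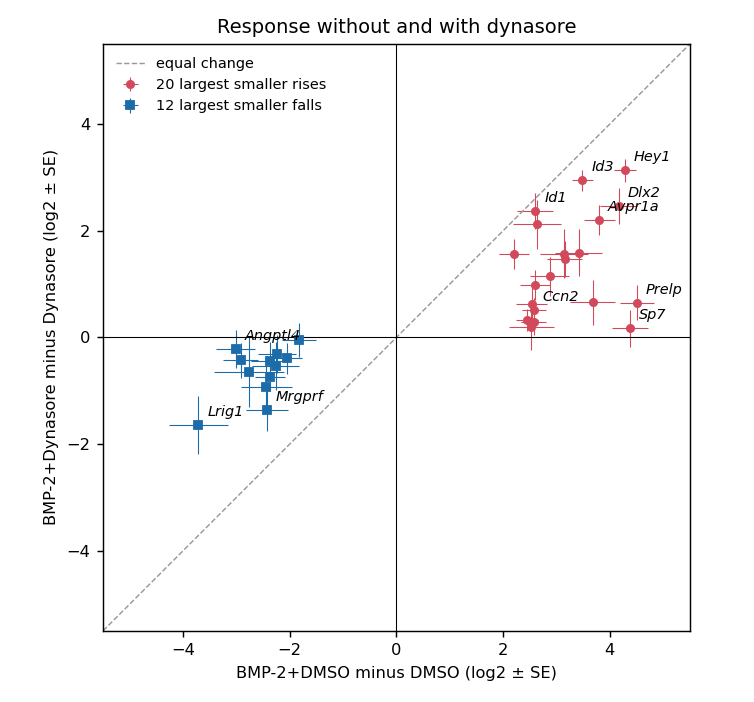
Fitted change in BMP-2+DMSO minus DMSO (horizontal axis, log2 ± standard error) and in BMP-2+Dynasore minus Dynasore (vertical axis) for the 20 largest increases (circles) and 12 largest decreases (squares), with a dashed line of equal change. Id1 (2.60 and 2.37) lies nearest the line, Hey1 (4.28 and 3.13) further below it and Prelp (4.51 and 0.65) near the horizontal axis, and Sp7, above background on the 2 BMP-2+DMSO arrays only, is drawn at fitted values that are no measured fold.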

How the data were processed

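C2C12 samples in 4 groups of 2 biological duplicates were measured on Illumina MouseRef-8 v2.0 BeadChips. The deposited values are linear probe intensities after rank invariant normalization in BeadStudio 3.0 by the authors. Values below 0 occur, as after a background subtraction, except on BMP-2+DMSO replicate 2 and BMP-2+Dynasore replicate 2. The methods do not name such a step. A second table, whose 16 columns of signals and detection p-values bear only numbers, could not be tied to samples and was not used.

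From the intensities, limma 3.58.1 in R 4.3.3 applied normexp (offset 16), quantile normalization over the 8 arrays and log2. A probe counted as above background where its signal exceeded the dim probes' mode by 1.645 SD, and probes above it on at least 2 of 8 arrays were tested: 10244 of 18138. Platform annotation gave 16886 probes 1 symbol and 1252 none. The 4 groups were fitted together with lmFit and eBayes (trend, robust), leaving 4 residual degrees of freedom, with Benjamini-Hochberg adjustment over all tested probes. The number of arrays limits the precision. A fold against a group with no array above background is a bound against the background limits.

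Members and lists were chosen with earlier results of these data known. Named genes were the 20 largest increases and 12 largest decreases by the smaller change among probes whose groups did not overlap, 8 genes of the study's qPCR, up to 4 members of each list with the largest smaller change, and the 6 largest falls on replicate 2 that were within 1.4-fold on replicate 1. Other genes, including those that fill a small count, were picked after their values were seen. The probe with the highest mean signal stood for a gene in a list. Promoter windows came from RefSeq. The fit was tested on simulated data. Alternatives changed the arrays, weights, background correction, normalization, filter, variance model, replicate block and test.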

Additional observations from a re-analysis of the deposited data

Results flagged for a closer look

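For 6 named genes every array of the BMP-2 response with DMSO moved one way and every array of the response with dynasore the other, relative to both of their controls. No interaction of these genes passed limma's adjusted threshold (adjusted p = 0.91 for each), so a difference between the responses is not shown. Response with dynasore minus response without, on the log2 scale, was -1.11 for Mepe, -0.34 for the ribosomal protein gene Rps24, 1.56 for Rps15, 0.73 for the tropomyosin gene Tpm1, 1.39 for the chemokine gene Cxcl1 and 1.39 for Fhl2. Mepe was above background only on the 2 BMP-2+DMSO arrays, so its order among the dynasore arrays lies within the background and its difference is no measured size. Rps15 was at 13.93 and 13.90 in DMSO and at 13.76 and 11.30 in BMP-2+DMSO, so most of its value comes from replicate 2. Fhl2 was at 9.78 and 9.67 in DMSO and at 8.71 and 8.64 in BMP-2+DMSO, so that its duplicates lay close together.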

How the results depend on the processing

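The counts of probes passing limma depended on the setting. In a fit on the 4 arrays of both groups alone 0 were higher and 0 lower, and with array weights 3 and 0. Leaving out 1 array gave 0 to 4230 higher and 0 to 2881 lower probes, 314 to 4171 higher and 294 to 3056 lower on both arrays by 1.4-fold, 0 to 5756 interaction calls and 164 to 1405 higher probes that BMP-2+Dynasore shared. The authors' values without further normalization gave 18 higher and 16 lower by limma, 152 and 523 on both arrays and 99 shared, with a median change over all tested probes of -0.28 against 0.10. Higher calls were 52.9% of all calls there and 76.2% in the reported fit. With the mode subtracted and a floor of 16 the limma counts were 21 and 13, and those on both arrays 503 and 513. All 18138 probes gave 445 higher on both arrays, and probes above background on all 4 arrays gave 23 higher and 11 lower by limma and 206 and 147 on both arrays. The methods name a one-way test with 1 BMP-2+DMSO array kept, without saying which. Without replicate 1 it called 3207 probes higher and 2275 lower by an unadjusted p under 0.05 with a change over 1.4-fold, and 2614 and 1952 after Benjamini-Hochberg adjustment. Without replicate 2, an alternative added after seeing the data, the counts were 331 and 429, and 168 and 211 after adjustment. A replicate block left 6 higher and 0 lower. The labels give the numbers no shared batch, and deviations of same-numbered DMSO and BMP-2+DMSO arrays correlated at -0.28. The crossed block, added after seeing the data like the alternatives for the interaction and the shared probes, left 2 and 0. The cause of these shifts was not tested.

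Directions of 8 named genes turned under an alternative. With 1 array left out the change of Vim ranged from -8.73 to 0.068, of Tuba1a from -6.73 to 0.32, of Hspa8 from -7.31 to 0.21, of Tuba1b from -7.26 to 0.14 and of H2az1 from -6.62 to 0.25, each above 0 without BMP-2+DMSO replicate 2. Ccna2 was at -0.035 without DMSO replicate 1 and at -0.19 with the mode subtracted. Without further normalization Hmox1 was at -0.25 and Rps24 at -0.023.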
